A study of Mus musculus with 24 samples.

Results

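The 10 genes described here encode the enzymes and helper proteins that make prostaglandins, thromboxane and leukotrienes from arachidonic acid: Pla2g4a, Ptgs1, Ptgs2, Ptges, Tbxas1, Hpgds, Alox5, Alox5ap, Lta4h and Ltc4s. They were chosen by name, and 10 of 10 were found among the 55357 genes of the count table. All 10 passed the filter on low counts, as did 14985 genes in the table. The libraries are RNA-seq of bone marrow-derived macrophages, which were grown from the marrow of wild-type C57BL/6J mice aged 8 to 12 weeks in medium with M-CSF-containing supernatant of L929 cells. Each of 8 groups has 3 libraries. Separate libraries were made from cells that were given, for a duration of 4 h or of 24 h, 100 nM dexamethasone together with 100 ng LPS, 100 ng LPS alone, 100 nM dexamethasone alone, or nothing. Dexamethasone is a synthetic glucocorticoid, and LPS is the bacterial lipopolysaccharide that activates Toll-like receptor 4; the labels give no volume for the LPS dose. Per the study's design text, the comparison of interest is how the glucocorticoid acts on LPS-treated macrophages at an early and a late time. Whether the 3 libraries of a group came from separate mice or cultures is not stated, so p-values reflect only how much these libraries vary, which may be technical.

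As background, cytosolic phospholipase A2 frees arachidonic acid from membranes, and the cyclooxygenases turn it into prostaglandin H2, from which separate synthases make prostaglandin E2, prostaglandin D2 or thromboxane A2. In the other branch, 5-lipoxygenase and its activating protein make leukotriene A4, which leukotriene A4 hydrolase turns into leukotriene B4 and leukotriene C4 synthase into leukotriene C4. Activated macrophages are known for making prostaglandin E2, and the inducible cyclooxygenase is a textbook target of glucocorticoid repression.

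Library totals ran from 18326206 to 27908164 counts. Levels are given in CPM, counts scaled to a common library size after edgeR's TMM normalization, and 1 CPM stood for 16 to 32 counts. Log2 fold changes are given with their standard errors. The adjusted p-values are Benjamini-Hochberg values over the 14985 genes from the quasi-likelihood test of edgeR, with a threshold of 0.05, and comparisons that share a group share its libraries. As a check of the treatments, the glucocorticoid targets Tsc22d3 and Fkbp5 were higher in each dexamethasone group than in its counterpart without dexamethasone, by log2 values from 3.78 to 7.21. The LPS-responsive cytokines Tnf and Il1b were higher with LPS than in untreated cells at both times, by 1.87 to 12.46. All 7 macrophage markers were detected in every group, with summed levels from 16300 to 51000 CPM, while 4 lymphocyte markers together stayed at or under 1.31 CPM. Other lists reached more: 4 eosinophil markers summed to 1.04 to 41.3 CPM and 7 dendritic cell markers to 0.673 to 42.9 CPM. Both sums were lowest with dexamethasone + LPS at 24 h and highest with LPS at 4 h. The part of such cells in the values was not tested. Positions below are those of the count table, whose header names GENCODE M29, and the build used for the alignment is uncertain because the labels list GRCm38 and mm10 while that annotation belongs to a later build.

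Dexamethasone given with LPS lowered Pla2g4a, the cytosolic phospholipase A2, and Ptgs2, the inducible cyclooxygenase, at both times, and its effect on the prostaglandin E2 synthase Ptges had opposite signs at 4 h and 24 h. At 4 h, 8 of the 10 genes passed the test in dexamethasone + LPS cells against LPS cells, where 49.3% of all tested genes did. Ptges and Lta4h were higher, against 23.9% of all genes higher, and Pla2g4a, Ptgs1, Ptgs2, Tbxas1, Hpgds and Alox5 were lower, against 25.4% of all genes lower. The median log2 fold change was -0.75 over the 10 genes and -0.004 over all genes tested. At 24 h, 7 of the 10 passed, against 43.7% of all genes: Ptgs1, Alox5ap and Lta4h were higher (21% of all genes) and Pla2g4a, Ptgs2, Ptges and Tbxas1 lower (22.6%). The median over the 10 was then -0.04, against 0.003 over all genes. Because these are bulk libraries, fewer cells of a type and less RNA per cell cannot be told apart in any of the values. With library size alone in place of the TMM factor, the median of all genes at 4 h moved by 0.21 on the log2 scale, the split of all calls turned to 5974 higher and 2365 lower from 3581 and 3807, and the 10 genes gave 3 higher and 6 lower.

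LPS alone, set against untreated cells, raised Pla2g4a, Ptgs2 and Ptges and lowered the others that passed. At 4 h all 10 passed the test, 3 higher and 7 lower, where 72.9% of all genes passed, 34.2% higher and 38.8% lower. At 24 h, 9 of 10 passed, with 3 higher and 6 lower, against 60.4% of all genes, 29.7% higher and 30.6% lower. Scaling by library size alone moved the median of all genes in this comparison by -0.77 at 4 h and by -0.20 at 24 h. It left the 10 genes at 3 higher and 7 lower at 4 h and 3 higher and 6 lower at 24 h, while all genes split into 2434 higher and 9779 lower at 4 h and 3079 and 6279 at 24 h. Each log2 value of the 10 genes at 4 h moved with that shift, by 1.7 to 1.71-fold on the linear scale. Relative to untreated cells, dexamethasone alone changed 8 of 10 genes at 4 h, 3 higher and 5 lower, against 41.4% of all genes (17.6% higher, 23.7% lower). By 24 h it changed 7, with 4 higher and 3 lower, against 48.4% (21.9% higher, 26.5% lower).

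Cells given both agents stayed apart from untreated cells in most of these genes. At 4 h all 10 passed in dexamethasone + LPS against untreated cells, 3 higher and 7 lower, where 70.3% of all genes passed, 33.7% higher and 36.5% lower. At 24 h, 9 passed, with Pla2g4a, Ptgs2, Ptges and Alox5ap higher and Ptgs1, Tbxas1, Hpgds, Alox5 and Lta4h lower, against 59.1% of all genes, 28.8% higher and 30.3% lower. The 24 h call of Alox5 (log2 -1.07 ± 0.30, adjusted p = 0.0032) was lost without untreated replicate 2 (-0.70, adjusted p = 0.057). Scaling by library size alone moved the median of all genes by -0.55 at 4 h and -0.17 at 24 h and the calls to 2710 higher and 8905 lower at 4 h and 3153 and 5958 at 24 h, against 5053 and 5474 at 4 h and 4317 and 4538 at 24 h with TMM, with the same counts among the 10 genes.

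The response to dexamethasone under LPS differed between 4 h and 24 h in 8 of the 10 genes. This was tested as the effect at 24 h minus that at 4 h, in which 38.8% of all genes passed, 19% higher at 24 h and 19.8% lower. Pla2g4a, Ptgs1, Tbxas1, Hpgds, Alox5 and Alox5ap had the higher effect at 24 h, and Ptgs2 and Ptges the lower. Library-size scaling turned the split of all genes to 1937 higher and 4808 lower from 2846 and 2962, and that of the 10 genes to 6 and 3, with Lta4h added. For the LPS effect, 6 of the 10 differed between the times, Lta4h being higher at 24 h and Pla2g4a, Ptgs1, Ptgs2, Tbxas1 and Hpgds lower, against 61.3% of all genes (30.8% higher, 30.5% lower). There, library-size scaling moved the median of all genes by 0.57 and gave 7692 higher and 2573 lower in place of 4617 and 4568, and 3 and 3 of the 10 genes, with the values of Pla2g4a and Tbxas1 turning to 0.001 and 0.135, which did not pass. For dexamethasone alone, Ptgs1, Tbxas1, Hpgds, Alox5ap and Ltc4s had the higher effect at 24 h and Lta4h the lower, against 30.7% of all genes (13.8% higher, 16.8% lower).

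The dexamethasone effect was also compared between cells with and without LPS. At 4 h it was lower with LPS than without for Pla2g4a, Ptges, Hpgds and Alox5ap. These are 4 of the 10 genes, near the share of all genes that differed (38.7%, with 20.8% higher and 17.9% lower). Scaling by library size alone moved the median of all genes by 0.23 and gave 5279 higher and 1566 lower in place of 3122 and 2675, with the same 4 calls among the 10 genes. At 24 h the dexamethasone effect was higher with LPS for Ptgs1, Hpgds and Lta4h and lower for Ptgs2, Ptges and Ltc4s, 6 of the 10 genes, against 38.2% of all genes (20.5% higher, 17.7% lower). At 24 h the Ptgs2 call was lost without dexamethasone replicate 1 (adjusted p = 0.092), 2 (0.14) or 3 (0.086) or untreated replicate 2 (0.061) or 3 (0.05), and the Lta4h call when any 1 of 7 libraries was left out (adjusted p = 0.058 to 0.12).

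**Figure D1:**
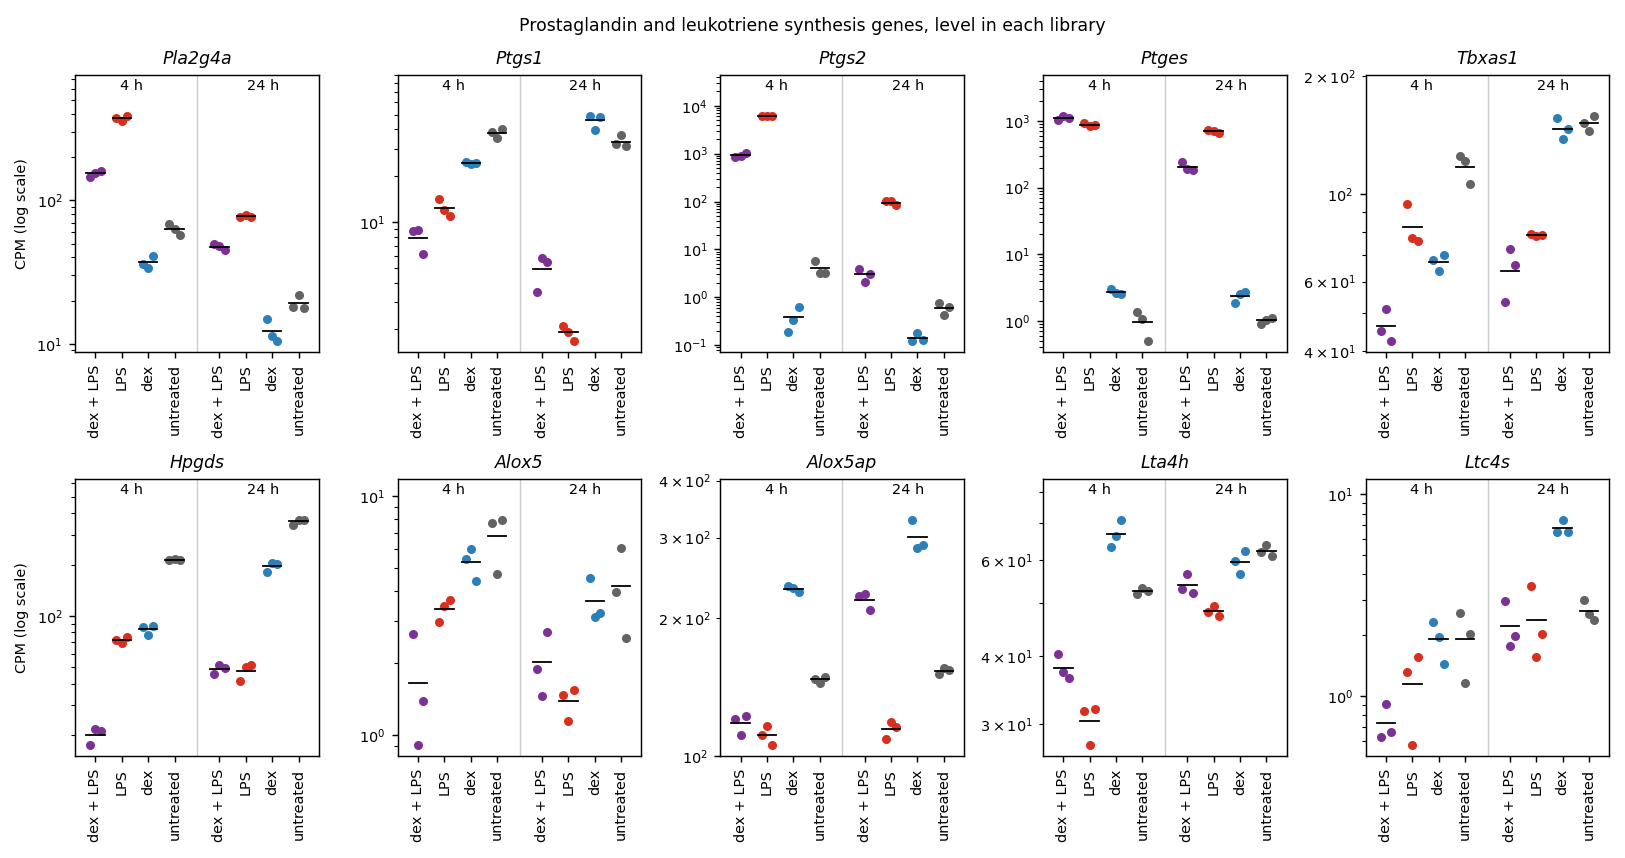
Level of each of the 10 genes in every library, in CPM on a log scale, with 4 h on the left and 24 h on the right of each panel; points are libraries and bars are group means of 3. Ptgs2 spans from 0.143 CPM on average with dexamethasone at 24 h to 6125 CPM with LPS at 4 h, whereas Lta4h stays within 2.2-fold between its highest and lowest group.

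Pla2g4a, on chromosome 1 from 149705369 to 149837041 on the minus strand, encodes cytosolic phospholipase A2 alpha, which releases arachidonic acid for both branches. At 4 h Pla2g4a stood at 146, 154 and 161 CPM in dexamethasone + LPS libraries, 376, 356 and 389 in LPS libraries, 35.8, 34.0 and 41.1 in dexamethasone libraries, and 68.5, 62.9 and 57.5 in untreated libraries. At 24 h the values were 49.4, 48.1 and 45.2 CPM with dexamethasone + LPS, 76.1, 79.2 and 76.0 with LPS, 15.01, 11.4 and 10.5 with dexamethasone, and 18.2, 21.8 and 17.7 untreated. The 8 groups fell into an order with no overlap between neighbours, from LPS at 4 h at the top, through dexamethasone + LPS at 4 h, to dexamethasone at 24 h at the bottom. Dexamethasone lowered Pla2g4a in each setting at both times. Under LPS it was 2.43-fold lower at 4 h (log2 -1.28 ± 0.08, adjusted p = 2.1e-14) and 1.62-fold lower at 24 h (-0.70 ± 0.09, adjusted p = 5.4e-08), and the fall was smaller at 24 h by 0.58 ± 0.12 on the log2 scale (adjusted p = 0.00013). Without LPS it was 1.71-fold lower at 4 h (-0.77 ± 0.09, adjusted p = 1e-08) and 1.56-fold lower at 24 h (-0.65 ± 0.11, adjusted p = 6.9e-06). Cells given both agents still held 2.44-fold more Pla2g4a than untreated cells at 4 h and 2.47-fold more at 24 h.

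Ptgs1 and Ptgs2 encode the 2 cyclooxygenases, which carry out the same reaction; Ptgs1 is the form found in resting cells and Ptgs2 the form induced by inflammation. Ptgs2 lies on chromosome 1 from 149975782 to 149983978 on the plus strand, and Ptgs1 on chromosome 2 from 36120438 to 36142284 on the plus strand. Their promoters are shown because the genes went opposite ways under LPS. The windows hold 250 bases before and 50 after the transcription start, from RefSeq on GRCm38.p6, at chr1:150099781-150100080 (plus strand) for Ptgs2 and chr2:36230176-36230475 (plus strand) for Ptgs1, with motif matches in capitals.
Ptgs2: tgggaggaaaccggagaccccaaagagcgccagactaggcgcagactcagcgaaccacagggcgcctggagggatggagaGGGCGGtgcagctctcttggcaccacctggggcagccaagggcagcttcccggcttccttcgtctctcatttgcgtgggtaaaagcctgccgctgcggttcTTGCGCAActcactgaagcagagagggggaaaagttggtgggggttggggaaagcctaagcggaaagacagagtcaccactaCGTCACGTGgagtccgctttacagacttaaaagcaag
Ptgs1: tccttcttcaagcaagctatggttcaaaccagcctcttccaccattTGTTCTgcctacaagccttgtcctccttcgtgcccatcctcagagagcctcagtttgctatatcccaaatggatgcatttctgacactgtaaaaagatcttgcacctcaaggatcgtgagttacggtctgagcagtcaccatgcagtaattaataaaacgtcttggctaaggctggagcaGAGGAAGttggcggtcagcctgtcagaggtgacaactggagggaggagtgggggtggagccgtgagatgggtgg
In the Ptgs2 window, a palindromic C/EBP motif (TTGCGCAA) lay from -69 to -62 relative to the start, a GC box (GGGCGG) from -170 to -165, and a CRE core (TGACG, on the minus strand) from 14 to 18 that overlaps an E-box (CACGTG) from 17 to 22. Of 32851 RefSeq promoter windows of 300 bases searched on both strands, 0.183% held the C/EBP motif, 35.7% the GC box, 20.8% the CRE core and 7.15% the E-box. The Ptgs1 window held a glucocorticoid receptor hexamer (AGAACA, minus strand, 19% of windows) from -204 to -199 and a PU.1 motif (GAGGAAG, 13.6% of windows) from -24 to -18. A match is a description of letters, not a binding site.

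Per kilobase of exon, Ptgs2 was the most abundant of the 10 transcripts with LPS at 4 h and among the scarcest without LPS. Its 4 h levels were 865, 906 and 1030 CPM in dexamethasone + LPS libraries, 6083, 6024 and 6269 in LPS libraries, 0.185, 0.340 and 0.635 in dexamethasone libraries, and 5.74, 3.18 and 3.22 in untreated libraries. At 24 h the values were 3.82, 2.12 and 3.06 CPM with dexamethasone + LPS, 100.7, 100.3 and 84.1 with LPS, 0.124, 0.179 and 0.126 with dexamethasone, and 0.770, 0.430 and 0.627 untreated. Within each time the 4 groups did not overlap. Dexamethasone + LPS cells held 6.56-fold less Ptgs2 than LPS cells at 4 h and 31.6-fold less at 24 h (log2 -4.98 ± 0.17), and the difference between the times, -2.27 ± 0.22, passed the test (adjusted p = 7e-08). Even so, Ptgs2 remained 221-fold above untreated cells at 4 h (7.79 ± 0.16, adjusted p = 9.5e-20) and 4.96-fold above them at 24 h (2.31 ± 0.38, adjusted p = 2.4e-05) when both agents were given. LPS alone against untreated gave 10.50 ± 0.17 at 4 h (adjusted p = 1.5e-21) and 7.29 ± 0.22 at 24 h (adjusted p = 8.3e-17).

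Without LPS, dexamethasone also lowered Ptgs2, from levels that were low already. Against untreated cells the log2 value at 4 h was -3.41 ± 0.37 (adjusted p = 2.4e-07), resting on 27 counts over 3 dexamethasone libraries and 323 over 3 untreated ones. At 24 h it was -2.03 ± 0.74 (adjusted p = 0.028), on 10 counts with dexamethasone and 42 in untreated libraries. That 24 h call was lost without untreated replicate 1 (adjusted p = 0.091) or 3 (0.062) and without dexamethasone replicate 1 (0.085), 2 (0.054) or 3 (0.079).

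Ptgs1 went the other way from Ptgs2 under LPS. The 4 h libraries held 8.68, 8.90 and 6.15 CPM with dexamethasone + LPS, 14.01, 12.0 and 10.9 with LPS, 24.7, 23.7 and 24.2 with dexamethasone, and 38.7, 35.4 and 40.2 untreated. Those of 24 h held 3.51, 5.85 and 5.45 CPM with dexamethasone + LPS, 2.11, 1.93 and 1.69 with LPS, 49.3, 39.7 and 48.4 with dexamethasone, and 32.2, 36.8 and 31.1 untreated. Within each time no groups overlapped, and dexamethasone libraries were below their counterparts at 4 h and above them at 24 h, with and without LPS. LPS lowered Ptgs1 3.09-fold at 4 h (log2 -1.63 ± 0.12, adjusted p = 2.3e-14) and 17.4-fold at 24 h (-4.12 ± 0.16, adjusted p = 5.8e-22) relative to untreated cells. In dexamethasone + LPS cells it was 1.56-fold lower than in LPS cells at 4 h (-0.64 ± 0.14, adjusted p = 0.00026) and 2.58-fold higher at 24 h (1.37 ± 0.20, adjusted p = 7.6e-07). This turn between the times, 2.01 ± 0.25 on the log2 scale, passed the test (adjusted p = 3.5e-08), as did the turn without LPS, 1.11 ± 0.15 (adjusted p = 4.2e-07), where dexamethasone alone gave -0.66 ± 0.11 at 4 h and 0.46 ± 0.11 at 24 h against untreated. A predicted gene on the opposite strand, Gm43621, shares 3.81% of the exon bases of Ptgs1, and the counting did not use strand.

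To set the cyclooxygenases side by side, levels were divided by exon length (CPM per kilobase). The share of Ptgs2 in the sum of both was 99.0% ± 0.26 with dexamethasone + LPS, 99.8% ± 0.033 with LPS, 1.34% ± 0.78 with dexamethasone and 8.21% ± 2.6 in untreated cells at 4 h (SD, n = 3 each). At 24 h it was 34.6% ± 12 with dexamethasone + LPS, 97.7% ± 0.098 with LPS, 0.271% ± 0.094 with dexamethasone and 1.55% ± 0.51 untreated. Dexamethasone + LPS at 24 h was thus the 1 group in which neither transcript made up nearly all of the sum, and its 3 libraries ranged from 23.5 to 48%, below every LPS library and above every untreated one.

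**Figure D2:**
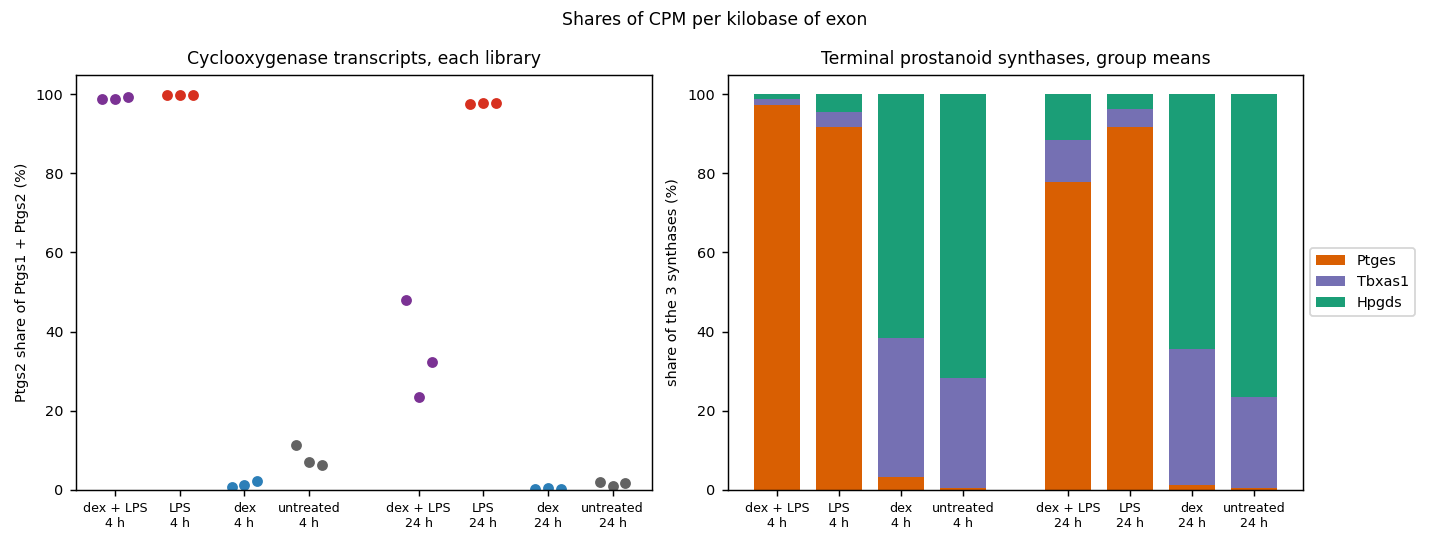
Left, share of Ptgs2 in the summed CPM per kilobase of Ptgs1 and Ptgs2 in each library, in percent; right, mean share of Ptges, Tbxas1 and Hpgds in their summed CPM per kilobase, in percent, as stacked bars (3 libraries per group). The Ptgs2 share is 34.6% on average with dexamethasone + LPS at 24 h against 97.7% with LPS, and Ptges fills 91.7% of the synthase bar with LPS at 4 h against 0.526% in untreated cells.

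The 3 terminal prostanoid synthases among the 10 genes responded in opposite directions to LPS. Ptges encodes the inducible microsomal prostaglandin E synthase and lies on chromosome 2 from 30779483 to 30819875 on the minus strand. Hpgds, the haematopoietic prostaglandin D synthase, lies on chromosome 6 from 65094277 to 65121892 on the minus strand, and Tbxas1, thromboxane A synthase, on chromosome 6 from 38852338 to 39061519 on the plus strand. The RefSeq windows of Ptges (chr2:30903248-30903547, minus strand) and Hpgds (chr6:65144681-65144980, minus strand) on GRCm38.p6 are shown because these genes had the strongest rise and fall under LPS among the synthases.
Ptges: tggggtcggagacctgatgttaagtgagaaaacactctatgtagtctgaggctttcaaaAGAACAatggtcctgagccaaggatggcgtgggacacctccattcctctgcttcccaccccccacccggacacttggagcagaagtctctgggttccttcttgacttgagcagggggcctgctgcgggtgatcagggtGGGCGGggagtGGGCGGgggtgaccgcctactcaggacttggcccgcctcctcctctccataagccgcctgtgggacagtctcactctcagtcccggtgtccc
Hpgds: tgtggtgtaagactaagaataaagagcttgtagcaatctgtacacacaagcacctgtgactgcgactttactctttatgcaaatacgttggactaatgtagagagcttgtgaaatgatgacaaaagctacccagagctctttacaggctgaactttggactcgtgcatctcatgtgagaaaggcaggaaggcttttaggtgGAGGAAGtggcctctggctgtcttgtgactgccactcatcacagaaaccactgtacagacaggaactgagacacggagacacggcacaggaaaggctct
Capitals in Ptges mark a glucocorticoid receptor hexamer (AGAACA) from -191 to -186 and GC boxes (GGGCGG) from -53 to -48 and from -42 to -37, and those in Hpgds mark a PU.1 motif (GAGGAAG) from -49 to -43. None of the 10 windows found for 9 of the genes held the full glucocorticoid receptor motif (AGAACA as an inverted repeat with a spacer of 3 bases), which was in 3 of 32851 windows, the NF-kB motif (8.46% of windows) or the full CRE (TGACGTCA, 1.79%). The letters of a TATA box (TATAAA, 13.6% of windows) were found in 1 of the windows of Pla2g4a, on the minus strand from -200 to -195. For Tbxas1 they lay from -13 to -8 on the minus strand and from -11 to -6 on the plus strand. An AP-1 motif (TGANTCA, 7.81%) lay from -61 to -55 for Tbxas1. Motifs of the shown genes also occurred in other members. The Pla2g4a window with the TATA letters held the glucocorticoid receptor hexamer from -221 to -216. PU.1 motifs lay on the minus strand from -20 to -14 for Tbxas1 and from 16 to 22 for Ltc4s, and a GC box from -35 to -30 for Alox5. These statements cover only these letters in these windows.

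LPS raised Ptges 864-fold at 4 h and 689-fold at 24 h over untreated cells, and under LPS dexamethasone changed it in opposite directions at these times. Levels at 4 h were 1037, 1207 and 1122 CPM in dexamethasone + LPS libraries, 922, 848 and 880.1 in LPS libraries, 3.01, 2.64 and 2.50 in dexamethasone libraries, and 1.34, 1.06 and 0.506 in untreated libraries. Levels at 24 h were 243, 187 and 185 CPM with dexamethasone + LPS, 735, 712 and 661 with LPS, 1.87, 2.54 and 2.73 with dexamethasone, and 0.906, 1.02 and 1.12 untreated. Dexamethasone + LPS libraries all lay above LPS libraries at 4 h and all below them at 24 h, and dexamethasone libraries lay above untreated ones at both times. Relative to LPS cells, Ptges was 1.27-fold higher in dexamethasone + LPS cells at 4 h (log2 0.34 ± 0.09, adjusted p = 0.002) and 3.43-fold lower at 24 h (-1.78 ± 0.09, adjusted p = 5e-14). The difference between these effects was -2.12 ± 0.13 (adjusted p = 1.8e-12). Without LPS, dexamethasone raised Ptges over untreated cells by 1.41 ± 0.27 at 4 h (adjusted p = 0.00015) and 1.22 ± 0.28 at 24 h (adjusted p = 0.00086), though to no more than 3.01 CPM in any library. The dexamethasone effect with LPS was below that without LPS by 1.06 ± 0.28 at 4 h (adjusted p = 0.0045), and by 3.00 ± 0.29 at 24 h (adjusted p = 9.5e-09). LPS against untreated gave 9.76 ± 0.16 at 4 h and 9.43 ± 0.16 at 24 h, and the difference of the LPS effects between the times, -0.33 ± 0.35, did not pass (95% interval -1.06 to 0.41, adjusted p = 0.44). The folds over untreated cells rest on 77 counts in 3 untreated libraries at 4 h and 71 at 24 h. With 1 library left out, the LPS value ran from 9.48 to 10.13 at 4 h and from 9.36 to 9.50 at 24 h.

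Hpgds, which makes prostaglandin D2, was the highest of these 3 synthases without LPS. The 4 h libraries held 17.5, 21.6 and 21.2 CPM with dexamethasone + LPS, 72.3, 69.4 and 75.01 with LPS, 85.9, 77.6 and 87.5 with dexamethasone, and 214, 217 and 212 untreated. Those of 24 h held 45.4, 51.5 and 49.4 CPM with dexamethasone + LPS, 41.8, 50.04 and 51.4 with LPS, 181, 205 and 203 with dexamethasone, and 343, 366 and 365 untreated. At 4 h the groups did not overlap and cells given both agents were lowest, while at 24 h the dexamethasone + LPS and LPS libraries overlapped. Under LPS, dexamethasone lowered Hpgds 3.6-fold at 4 h (log2 -1.85 ± 0.08, adjusted p = 3e-20), whereas at 24 h the value was 0.03 ± 0.07 (95% interval -0.12 to 0.19, adjusted p = 0.77). The effects differed between the times by 1.88 ± 0.11 (adjusted p = 3.1e-16). Dexamethasone alone lowered it against untreated cells by 2.56-fold at 4 h (-1.36 ± 0.07, adjusted p = 1.3e-18) and 1.83-fold at 24 h (-0.87 ± 0.06, adjusted p = 7.8e-14). LPS lowered it 2.96-fold at 4 h (-1.57 ± 0.07, adjusted p = 3.6e-21) and 7.5-fold at 24 h (-2.91 ± 0.07, adjusted p = 4.3e-28).

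Tbxas1 moved in a narrower range, with 3.28-fold between its highest and lowest group means. At 4 h it ranged from 42.5 to 51.0 CPM with dexamethasone + LPS, 75.9 to 94.4 with LPS, 63.7 to 70.1 with dexamethasone and 106 to 125 untreated. Libraries of 24 h ranged from 53.1 to 72.6 CPM with dexamethasone + LPS, from 78.4 to 79.4 with LPS, 138 to 156 with dexamethasone and 145 to 159 untreated. Dexamethasone + LPS libraries lay below LPS libraries at both times, while dexamethasone and untreated libraries overlapped at 24 h. Dexamethasone under LPS gave -0.84 ± 0.10 at 4 h (adjusted p = 5.4e-08) and -0.30 ± 0.09 at 24 h (adjusted p = 0.01), and the 24 h call was lost without dexamethasone + LPS replicate 1 (-0.18, adjusted p = 0.086). Dexamethasone alone gave -0.80 ± 0.09 at 4 h (adjusted p = 5.1e-08) and -0.05 ± 0.09 at 24 h (adjusted p = 0.70), a difference between the times of 0.76 ± 0.13 (adjusted p = 3.6e-05). LPS lowered Tbxas1 by 0.51 ± 0.09 at 4 h and by 0.94 ± 0.09 at 24 h on the log2 scale against untreated cells. Platelets also express this enzyme, and 6 megakaryocyte and platelet markers summed to 2.13 to 21.7 CPM over the libraries, highest with LPS at 4 h (9.82 to 21.7), where Tbxas1 was lower than in untreated cells (7.42 to 10.9 for the markers); their part in the values was not tested.

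On the scale of CPM per kilobase, the make-up of the 3 synthases turned over with LPS. Their sum leaves out the other prostaglandin E synthase genes, Ptges2 and Ptges3, so the shares are not of all terminal synthases. At 4 h Ptges3 averaged 63.0 CPM per kilobase untreated and 95.1 with LPS, and Ptges2 2.62 untreated and 4.11 with LPS. Ptges made up 97.2% ± 0.068 of their sum with dexamethasone + LPS, 91.7% ± 0.14 with LPS, 3.27% ± 0.34 with dexamethasone and 0.526% ± 0.22 untreated at 4 h (SD, n = 3 each). Hpgds made up 1.06% with dexamethasone + LPS, 4.59% with LPS, 61.7% with dexamethasone and 71.7% untreated. At 24 h the Ptges share was 77.8% ± 4.3 with dexamethasone + LPS, 91.7% ± 0.74 with LPS, 1.28% ± 0.21 with dexamethasone and 0.355% ± 0.027 untreated. The share of Hpgds at 24 h was 9.45 to 12.6% with dexamethasone + LPS against 3.21 to 4.33% with LPS, and that of Tbxas1 averaged 10.7% with dexamethasone + LPS and 4.45% with LPS. Dexamethasone + LPS libraries thus lay above LPS libraries in the Ptges share at 4 h (97.2 to 97.3% against 91.6 to 91.8%) and below them at 24 h (74.9 to 82.7% against 91.0 to 92.5%).

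**Figure D3:**
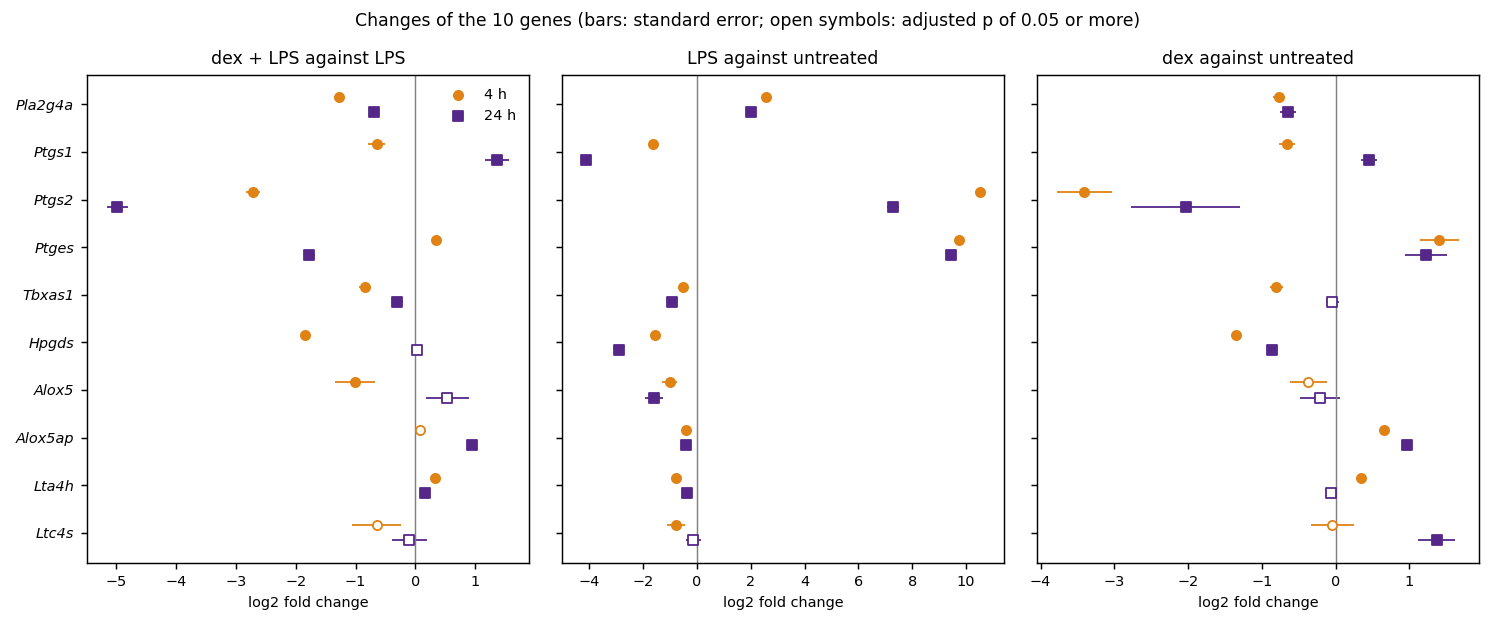
Log2 fold changes of the 10 genes with standard errors in 3 comparisons, at 4 h (circles) and 24 h (squares); open symbols did not pass an adjusted p of 0.05. In dexamethasone + LPS against LPS, Ptges lies at 0.34 at 4 h and -1.78 at 24 h and Ptgs1 at -0.64 and 1.37, while Ptgs2 is lower at both times (-2.71 and -4.98).

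In the leukotriene branch, dexamethasone alone raised Alox5ap at both times, and Alox5 and Ltc4s reached no more than 7.96 and 7.45 CPM in any library. Alox5ap encodes the 5-lipoxygenase activating protein, which presents arachidonic acid to the enzyme, and lies on chromosome 5 from 149201577 to 149224963 on the plus strand. Its levels at 4 h were 120, 111 and 122 CPM with dexamethasone + LPS, 111, 116 and 106 with LPS, 236, 233 and 228 with dexamethasone, and 148, 145 and 149 untreated. Its levels at 24 h were 224, 226 and 208 CPM with dexamethasone + LPS, 109, 119 and 116 with LPS, 328, 285 and 289 with dexamethasone, and 151, 155 and 154 untreated. Dexamethasone libraries lay above untreated ones at both times, whereas dexamethasone + LPS libraries overlapped LPS libraries at 4 h and lay above them at 24 h. Against untreated cells, dexamethasone raised Alox5ap 1.58-fold at 4 h (log2 0.66 ± 0.05, adjusted p = 7.9e-13) and 1.96-fold at 24 h (0.97 ± 0.05, adjusted p = 1.2e-17).

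Under LPS the value of Alox5ap was 0.09 ± 0.06 at 4 h (95% interval -0.03 to 0.20, adjusted p = 0.21) and 0.94 ± 0.06 at 24 h (1.92-fold, adjusted p = 6.6e-17). The effects differed between the times by 0.85 ± 0.08 (adjusted p = 2.6e-11), and at 4 h the effect with LPS was below that without LPS by 0.57 ± 0.08 (adjusted p = 1.5e-07). Scaled by library size alone, the 4 h value under LPS was 0.31 and passed (adjusted p = 3.6e-06). LPS lowered Alox5ap by 0.41 ± 0.06 at 4 h and by 0.42 ± 0.06 at 24 h on the log2 scale against untreated cells. The predicted gene Gm19719 on the opposite strand shares 13.3% of the exon bases of Alox5ap, so with counting that ignored strand and dropped reads over several genes its level is uncertain to that extent. Neutrophils express Alox5ap strongly, and 11 neutrophil markers were summed, of which 10 passed the filter. At 4 h the sum was 98.8 to 149 CPM with dexamethasone + LPS, 126 to 175 with LPS, 66.8 to 78.4 with dexamethasone and 53 to 73 untreated. At 24 h it was 85.4 to 121 CPM with dexamethasone + LPS, 23.9 to 29.1 with LPS, 118 to 144 with dexamethasone and 8.57 to 12.1 untreated. The 24 h sum was higher with dexamethasone, as Alox5ap was, but also higher with LPS than untreated, where Alox5ap was lower. Mmp8 alone held most of that sum (on average 82.6 CPM with dexamethasone + LPS, 16.9 with LPS, 128 with dexamethasone and 7.21 untreated), and the defining marker Ly6g averaged no more than 0.0513 CPM in any group. The part of such cells in the Alox5ap values was not tested.

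Alox5, 5-lipoxygenase itself, lies on chromosome 6 from 116387038 to 116438139 on the minus strand. Levels at 4 h were 2.65, 0.908 and 1.39 CPM with dexamethasone + LPS, 2.98, 3.48 and 3.69 with LPS, 5.46, 6.00 and 4.40 with dexamethasone, and 7.71, 4.703 and 7.96 untreated. Levels at 24 h ranged from 1.45 to 2.70 CPM with dexamethasone + LPS, 1.15 to 1.54 with LPS, 3.12 to 4.56 with dexamethasone and 2.55 to 6.06 untreated. LPS libraries lay below untreated ones at both times, dexamethasone libraries overlapped untreated ones, and at 4 h dexamethasone + LPS libraries lay below LPS libraries. LPS lowered Alox5 2.02-fold at 4 h (log2 -1.02 ± 0.28, adjusted p = 0.0016) and 3.04-fold at 24 h (-1.60 ± 0.32, adjusted p = 7.1e-05). Under LPS, dexamethasone lowered it 2.01-fold at 4 h (SE 0.34 on the log2 scale, adjusted p = 0.014), a call lost without dexamethasone + LPS replicate 2 (-0.73, adjusted p = 0.089) or 3 (-0.88, adjusted p = 0.066). The log2 value in dexamethasone + LPS against LPS cells at 24 h was 0.53 ± 0.36 (95% interval -0.23 to 1.30, adjusted p = 0.25), which did not pass.

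Lta4h, on chromosome 10 from 93289273 to 93320737 on the plus strand, encodes leukotriene A4 hydrolase, which makes leukotriene B4. It ranged at 4 h from 36.4 to 40.4 CPM with dexamethasone + LPS, 27.5 to 32.0 with LPS, 63.3 to 71.1 with dexamethasone and 51.9 to 53.4 untreated. Levels at 24 h ranged from 52.2 to 56.5 CPM with dexamethasone + LPS, 47.4 to 49.4 with LPS, 56.6 to 62.3 with dexamethasone and 61.1 to 63.8 untreated. Dexamethasone libraries exceeded their counterparts at 4 h with and without LPS. The log2 value under LPS was 0.32 ± 0.07 at 4 h (adjusted p = 0.00013) and that without LPS 0.35 ± 0.06 (adjusted p = 1.4e-05), while LPS against untreated was -0.79 ± 0.07 (adjusted p = 2.4e-13). At 24 h the value under LPS was 0.16 ± 0.06 (adjusted p = 0.04), a call lost without dexamethasone + LPS replicate 1 (adjusted p = 0.058) or 2 (0.18) and without LPS replicate 1 (0.091), 2 (0.052) or 3 (0.11).

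Ltc4s, leukotriene C4 synthase, lies on chromosome 11 from 50127288 to 50129443 on the minus strand, and 26.4% of its exon bases are shared with Gm26542 on the opposite strand, so its counts are uncertain. The 4 h libraries held 0.623, 0.908 and 0.665 CPM with dexamethasone + LPS, 1.31, 0.571 and 1.56 with LPS, 2.31, 1.96 and 1.44 with dexamethasone, and 2.56, 1.15 and 2.03 untreated. Those of 24 h held 2.93, 1.76 and 1.97 CPM with dexamethasone + LPS, 3.49, 1.56 and 2.04 with LPS, 6.51, 7.45 and 6.46 with dexamethasone, and 2.99, 2.54 and 2.37 untreated. The dexamethasone libraries of 24 h stood above all others, and the remaining groups overlapped with their neighbours in the order of means. Dexamethasone alone raised Ltc4s 2.58-fold at 24 h against untreated cells (log2 1.37 ± 0.26, adjusted p = 2.5e-05), and under LPS at 24 h the value was -0.10 ± 0.29 (95% interval -0.73 to 0.53, adjusted p = 0.82), with a difference of -1.47 ± 0.39 between the settings (adjusted p = 0.0025). LPS against untreated at 4 h gave -0.77 ± 0.33 (adjusted p = 0.037), a call lost without untreated replicate 1 (adjusted p = 0.26) or 3 (0.065) or LPS replicate 2 (0.24), with DESeq2 (0.051), with size factors of the RLE type (0.055) and in a fit of those groups alone (0.11).

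Mast cells and basophils express Ltc4s and Hpgds, and the summed level of 10 of their markers, of which 4 passed the filter, was 212 to 218 CPM with dexamethasone + LPS, 347 to 372 with LPS, 0.925 to 1.49 with dexamethasone and 3.14 to 4.09 untreated at 4 h. At 24 h it was 1.5 to 2.04 CPM with dexamethasone + LPS, 2.48 to 3.33 with LPS, 0.539 to 1.07 with dexamethasone and 10.6 to 11.9 untreated. The 4 h levels were nearly all Hdc, histidine decarboxylase (212 CPM on average with dexamethasone + LPS and 356 with LPS), and Cma1, Tpsb2, Tpsab1 and Mcpt4 had no count in any library. Cpa3 averaged at most 1.18 CPM and Fcer1a at most 0.215 CPM in any group. At 24 h the sum was highest in untreated cells, where Hpgds was also highest, while at 4 h it was highest with LPS, where Hpgds was lower than in untreated cells. The part of such cells in the Hpgds and Ltc4s values was not tested.

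Ranked per kilobase of exon, the 10 transcripts changed places with LPS. In LPS cells at 4 h, Ptgs2 led at 1337 ± 27.9 CPM per kilobase, followed by Ptges at 225 ± 9.35, Alox5ap at 78.1 ± 3.75 and Pla2g4a at 58.5 ± 2.66 (SD, n = 3). In untreated cells at 4 h, Alox5ap led at 104 ± 1.58, followed by Hpgds at 33.3 ± 0.376 and Tbxas1 at 12.9 ± 1.09, and Ptgs2 (0.884 ± 0.320) and Ptges (0.247 ± 0.108) were the lowest of the 10. With dexamethasone + LPS at 24 h, Alox5ap (154 ± 6.88) and Ptges (52.2 ± 8.30) led, while Ptgs2 stood at 0.656 ± 0.186. With LPS at 24 h, Ptges (179 ± 9.60) and Alox5ap (80.5 ± 3.50) led and Ptgs2 stood at 20.8 ± 2.07.

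Untreated cells also differed between the times, in about the same share of the 10 genes as of all genes. In untreated cells at 24 h against 4 h, 6 of the 10 genes passed the test, where 60.9% of all genes did: Tbxas1, Hpgds and Lta4h were higher (30.6% of all genes) and Pla2g4a, Ptgs2 and Alox5 lower (30.4%). What made the times differ was not tested. Pla2g4a averaged 19.2 ± 2.23 CPM at 24 h and 63.0 ± 5.52 at 4 h, and Ptgs2 0.609 ± 0.171 at 24 h and 4.05 ± 1.47 at 4 h, while Hpgds averaged 358 ± 13.2 at 24 h and 214 ± 2.42 at 4 h. The Alox5 call was lost without untreated replicate 1 (adjusted p = 0.095) or 3 (0.089) of 4 h or replicate 1 (0.066) or 3 (0.15) of 24 h, and in a fit of these groups alone (0.079). Folds against untreated cells therefore have different baselines at 4 h and 24 h for these genes.

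Around the 10 genes, 67 other genes of arachidonate handling, prostanoid and leukotriene metabolism and eicosanoid receptors were listed, of which 66 were in the table and 47 were tested. Of 19 tested genes of arachidonate release and reacylation, 8 were higher and 6 lower in dexamethasone + LPS cells than in LPS cells at 4 h, and 5 were higher and 4 lower at 24 h, with medians of -0.08 and 0.08. Over all genes in that comparison, 23.9% were higher and 25.4% lower at 4 h, and 21% higher and 22.6% lower at 24 h, with medians of -0.004 and 0.003. Acsl1, an acyl-CoA synthetase, averaged 283 ± 20.1 CPM with dexamethasone + LPS and 511 ± 12.0 with LPS at 4 h, and 382 ± 24.95 with dexamethasone + LPS against 2199 ± 116 with LPS at 24 h. That is 5.76-fold lower at 24 h (log2 -2.53 ± 0.06, adjusted p = 4.3e-29) and -0.86 ± 0.05 at 4 h (adjusted p = 9.1e-16). Pla2g7, the secreted phospholipase that degrades platelet-activating factor, averaged 227 ± 38.6 CPM with dexamethasone + LPS and 68.0 ± 9.32 with LPS at 4 h (1.74 ± 0.17, adjusted p = 9e-08). At 24 h its value was -0.18 ± 0.15 (adjusted p = 0.37). Mgll, monoacylglycerol lipase, fell to 0.362 ± 0.362 CPM with LPS at 24 h, against 24.7 ± 1.88 in untreated cells (-6.02 ± 0.27, adjusted p = 1.2e-20).

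Among 9 tested prostanoid enzymes and transporters, 1 was higher and 3 lower in dexamethasone + LPS against LPS cells at 4 h, and 3 were higher and 5 lower at 24 h, with medians of -0.04 and -0.21. All genes gave 23.9% higher and 25.4% lower at 4 h, and 21% higher and 22.6% lower at 24 h. Hpgd, the 15-hydroxyprostaglandin dehydrogenase that inactivates prostaglandins, averaged 7.76 ± 1.02 CPM with dexamethasone + LPS, 17.5 ± 3.28 with LPS, 49.4 ± 5.40 with dexamethasone and 107 ± 1.79 untreated at 4 h. Its 24 h means were 1.56 ± 0.685 CPM with dexamethasone + LPS, 1.33 ± 0.498 with LPS, 171 ± 17.5 with dexamethasone and 164 ± 37.1 untreated. LPS thus lowered this catabolic enzyme 6.1-fold at 4 h and 125-fold at 24 h (log2 -6.97 ± 0.25, adjusted p = 8.6e-15), while it raised Ptges. Abcc4, an exporter of prostaglandin E2, averaged 62.9 ± 3.81 CPM with dexamethasone + LPS against 112 ± 5.02 with LPS at 4 h (-0.83 ± 0.07, adjusted p = 1.2e-12). Ptges2, a membrane-associated prostaglandin E synthase, was higher in dexamethasone + LPS than in LPS cells at 4 h (0.92 ± 0.11, adjusted p = 4e-09) and 24 h (1.07 ± 0.10, adjusted p = 6.1e-11).

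Of 9 tested leukotriene and lipoxygenase genes outside the 10, 5 were higher and 1 lower in dexamethasone + LPS against LPS cells at 4 h, and 6 were higher and 1 lower at 24 h, with medians of 0.35 and 1.14. The shares of all genes were 23.9% higher and 25.4% lower at 4 h, and 21% higher and 22.6% lower at 24 h. The gene that was lower at both times was Abcc1, an exporter of leukotriene C4, at 338 ± 7.79 CPM with dexamethasone + LPS and 465 ± 25.1 with LPS at 4 h, and 96.8 ± 8.40 with dexamethasone + LPS and 261 ± 25.6 with LPS at 24 h. Mgst2, a microsomal enzyme that can also make leukotriene C4, averaged 4.7 ± 0.332 CPM with dexamethasone + LPS and 1.20 ± 0.596 with LPS at 4 h, and 12.9 ± 1.41 with dexamethasone + LPS and 3.71 ± 0.896 with LPS at 24 h. Without LPS it averaged 15.6 ± 1.73 CPM with dexamethasone and 0.730 ± 0.221 untreated at 4 h (log2 4.45 ± 0.24, adjusted p = 6.5e-18). At 24 h, Ggt5, which converts leukotriene C4 to D4, averaged 7.69 ± 1.70 CPM with dexamethasone + LPS against 0.501 ± 0.272 with LPS (3.91 ± 0.34, adjusted p = 3.4e-12). Cyp4f18, a leukotriene B4 hydroxylase, averaged 16.7 ± 1.97 CPM with dexamethasone + LPS against 1.58 ± 0.616 with LPS at that time (3.41 ± 0.19, adjusted p = 5.3e-17).

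Of 10 tested eicosanoid receptors, 7 were higher with LPS than in untreated cells at 4 h, and at 24 h 7 were higher and 1 lower, with medians of 1.31 and 1.80 against -0.07 and -0.02 over all genes. Of all genes, 34.2% were higher and 38.8% lower with LPS at 4 h, and 29.7% higher and 30.6% lower at 24 h. In dexamethasone + LPS against LPS cells, 2 were higher and 5 lower at 4 h (23.9% and 25.4% of all genes), and 1 was higher and 2 lower at 24 h (21% and 22.6%). Ptger4, the EP4 receptor of prostaglandin E2, averaged 15.3 ± 2.10 CPM with dexamethasone + LPS and 64.9 ± 9.30 with LPS at 4 h (log2 -2.09 ± 0.12, adjusted p = 2.7e-14), and 40.6 ± 7.39 with dexamethasone + LPS and 45.3 ± 4.42 with LPS at 24 h (-0.15 ± 0.11, adjusted p = 0.28). Ptger2, the EP2 receptor, was raised by dexamethasone alone, to 23.2 ± 1.40 CPM against 1.69 ± 0.327 in untreated cells at 4 h (3.81 ± 0.14, adjusted p = 8.1e-23). Cysltr1, a receptor of cysteinyl leukotrienes, averaged 25.8 ± 1.89 CPM with dexamethasone + LPS and 120.2 ± 12.9 with LPS at 24 h (-2.22 ± 0.08, adjusted p = 4.3e-23). Fpr2, the formyl peptide receptor also known to bind lipoxin A4, averaged 257 ± 17.5 CPM with LPS against 1.24 ± 0.506 in untreated cells at 4 h (7.61 ± 0.28, adjusted p = 5.8e-20), and its value in dexamethasone + LPS against LPS cells was 0.09 ± 0.10 (adjusted p = 0.49).

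**Figure D4:**
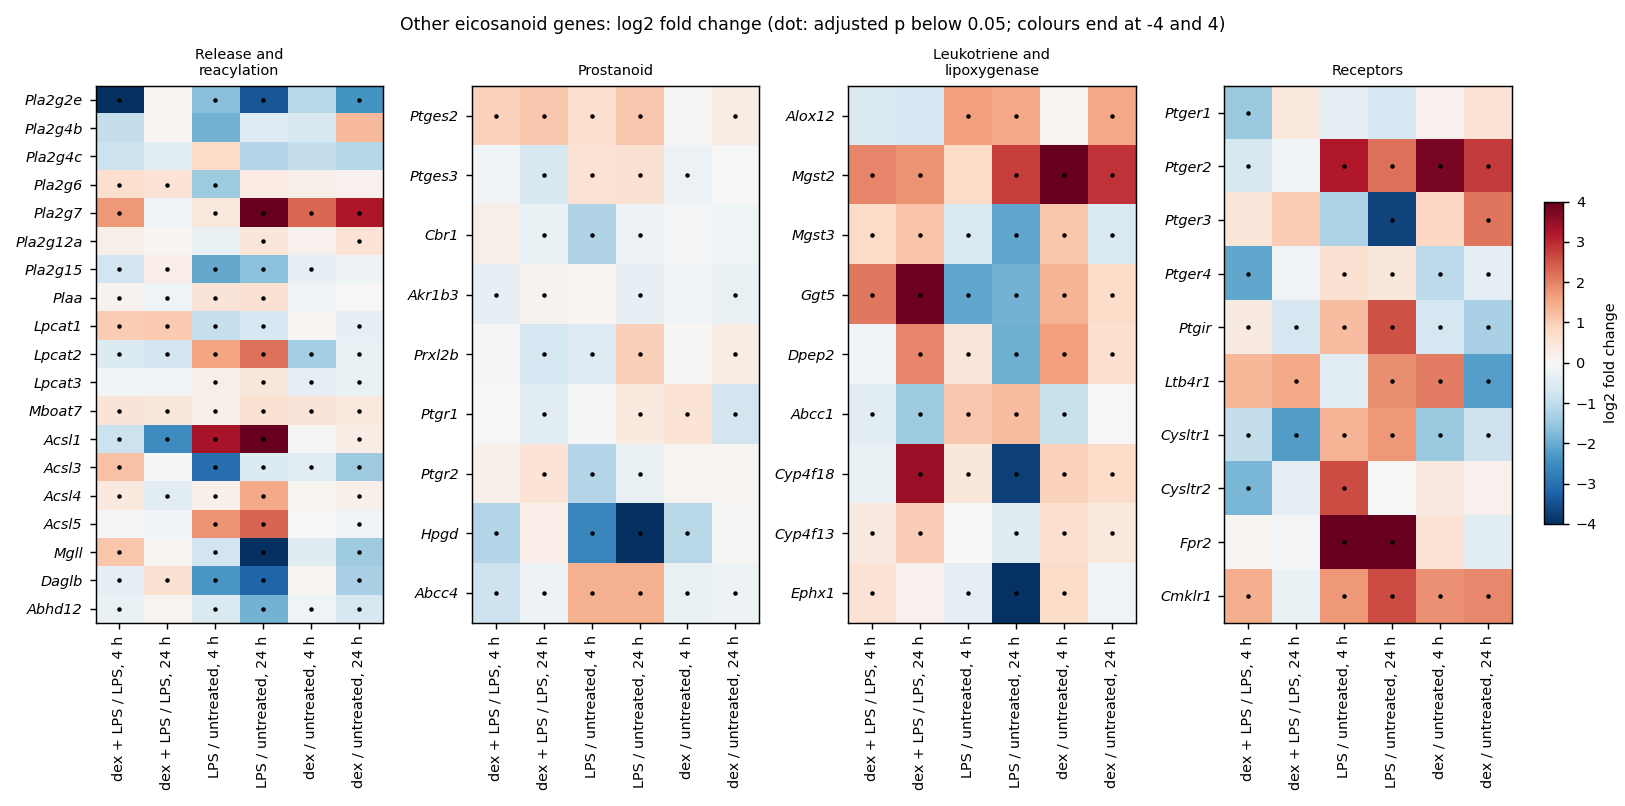
Log2 fold changes of the 47 other tested genes of the pathway in 4 lists, in dexamethasone + LPS against LPS, LPS against untreated and dexamethasone against untreated, each at 4 h and 24 h; colour gives the value and a dot an adjusted p below 0.05. Receptors are mostly red with LPS (7 of 10 higher at each time), and Mgst2 is red in dexamethasone + LPS against LPS at both times (1.97 and 1.79).

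The genes whose pattern was most like that of each of the 10 were ranked by Pearson's r over the 8 group means of log2(CPM + 1), among 9860 or 9861 genes with a mean of at least 5 CPM. These r values describe group means that share treatments and times, and they carry no test. Nearest to Ptgs2 was U90926 (r = 0.991), whose means were 35 CPM with dexamethasone + LPS and 104 with LPS at 4 h and 0.624 with dexamethasone + LPS and 9.52 with LPS at 24 h, with no count in the groups without LPS. Nearest to Ptges was Sod2 (r = 0.995), the mitochondrial superoxide dismutase, at 2512 CPM with dexamethasone + LPS and 2463 with LPS at 4 h, and at 1426 with dexamethasone + LPS and 1865 with LPS at 24 h. The prostaglandin-degrading Hpgd was nearest to Ptgs1 (r = 0.979), and both had their lowest mean with LPS at 24 h. For Hpgd these libraries (0.826 to 1.82 CPM) overlapped those of dexamethasone + LPS (0.883 to 2.25 CPM), whereas for Ptgs1 they did not. The other first-ranked genes were Clptm1 for Pla2g4a (0.997), Nr1d2 for Tbxas1 (0.978), Ncoa3 for Hpgds (0.991), Tbc1d5 for Alox5 (0.971), Snrk for Alox5ap (0.989), Ubald1 for Lta4h (0.991) and Mmp27 for Ltc4s (0.969).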

How the data were processed

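RNA-seq libraries from mouse bone marrow-derived macrophages were analysed, 24 in 8 groups of 3, with groups and replicate numbers taken from the labels. The deposited table holds raw counts of read pairs per gene that the authors made with featureCounts 2.0.0, per the file headers, over GENCODE M29 exons, without strand and leaving out reads over several places or genes; STAR is named in the submitters' processing notes. The deposited gene length column, per the file headers, gave exon lengths. Symbols came with 52081 identifiers, and 3276 had none.

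From these counts, edgeR 4.0.16 in R 4.3.3 filtered genes by group (14985 kept), scaled by TMM (factors 0.679 to 1.184) and fitted all 24 libraries with a mean per group and 16 residual degrees of freedom. Robust quasi-likelihood tests gave two-sided p-values, adjusted by Benjamini-Hochberg over all genes tested, for 14 comparisons. The fit was also run on simulated data in which few genes changed, which does not test the scaling where many genes change. The biological coefficient of variation was 6.29%. No replicate pair was a repeated library: the chi-square per gene was at least 2.99.

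The 10 genes, the other lists and the markers were chosen with earlier results of these data known. Of each other list, up to 2 higher and 2 lower genes per comparison with the strongest change and at least 1 CPM could be named, and for each of the 10 the 3 most similar patterns; values of a named gene in further comparisons are given beside it. Promoter windows were RefSeq's for GRCm38.p6 and matched 9 of the 10 genes. The alternatives were RLE size factors, library size alone, no filter, the replicate number as a block, a fit of only the groups compared, DESeq2 1.42.0, and leaving out each library. Shares and levels per kilobase are descriptions without a test.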

Additional observations from a re-analysis of the deposited data

Results flagged for a closer look

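Differences between effects passed the test of the difference itself for these genes, all given as log2 differences with standard errors from edgeR's quasi-likelihood test with adjustment over all genes. No explanation was tested.

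The dexamethasone effect under LPS, at 24 h minus 4 h, was 0.585 ± 0.12 for Pla2g4a, 2.009 ± 0.25 for Ptgs1, -2.269 ± 0.22 for Ptgs2 and -2.121 ± 0.13 for Ptges. It was 0.54 ± 0.13 for Tbxas1, 1.879 ± 0.11 for Hpgds, 1.538 ± 0.49 for Alox5 and 0.855 ± 0.08 for Alox5ap. These 8 had adjusted p-values from 3.1e-16 (Hpgds) to 0.014 (Alox5). That of Alox5 was lost without dexamethasone + LPS replicate 3 of 24 h (1.257, adjusted p = 0.062).

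The LPS effect, at 24 h minus 4 h, was -0.567 ± 0.12 for Pla2g4a, -2.495 ± 0.21 for Ptgs1, -3.209 ± 0.53 for Ptgs2, -0.435 ± 0.13 for Tbxas1, -1.34 ± 0.10 for Hpgds and 0.425 ± 0.09 for Lta4h, with adjusted p-values from 1.7e-14 to 0.0046. The values of Pla2g4a and Tbxas1 turn sign under library-size scaling, as given with the alternatives.

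The effect of dexamethasone alone, at 24 h minus 4 h, was 1.11 ± 0.15 for Ptgs1, 0.758 ± 0.13 for Tbxas1, 0.487 ± 0.09 for Hpgds, 0.314 ± 0.08 for Alox5ap, -0.412 ± 0.09 for Lta4h and 1.412 ± 0.39 for Ltc4s. Adjusted p-values ran from 4.2e-07 to 0.0048.

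The dexamethasone effect with LPS minus that without LPS was, at 4 h, -0.511 ± 0.12 for Pla2g4a, -1.062 ± 0.28 for Ptges, -0.492 ± 0.10 for Hpgds and -0.572 ± 0.08 for Alox5ap, with adjusted p-values from 1.5e-07 to 0.0045. At 24 h it was 0.911 ± 0.23 for Ptgs1, -2.998 ± 0.29 for Ptges, 0.9 ± 0.10 for Hpgds and -1.47 ± 0.39 for Ltc4s, with adjusted p-values from 1.5e-09 to 0.0025. At the same time it was -2.948 ± 1.07 for Ptgs2 (adjusted p = 0.036), a call lost without dexamethasone replicate 1 (0.092), 2 (0.14) or 3 (0.086) and without untreated replicate 2 (0.061) or 3 (0.05) of 24 h. For Lta4h it was 0.224 ± 0.09 (adjusted p = 0.042), a call lost without 7 single libraries of 24 h: untreated replicate 1 (adjusted p = 0.059) or 2 (0.086), dexamethasone replicate 1 (0.058) or 2 (0.12), dexamethasone + LPS replicate 2 (0.12) and LPS replicate 1 (0.069) or 3 (0.081).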

How the results depend on the processing

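All 28 counts of genes and of members called stayed within 1.5 times their first value under each alternative run. These counts pool both directions, so they do not show whether the split into higher and lower held. With library size alone the LPS effect at 24 h minus 4 h went from 1 higher and 5 lower of the 10 genes to 3 and 3. Of 140 tests of the 10 genes, 139 kept their call with RLE size factors, 139 with DESeq2, 135 without the filter and 132 with library size alone, and 136 of 139 did in fits of only the groups compared. A kept call means the same side of the threshold. Direction was compared only where the first or the alternative run passed, so values that passed in neither could change sign. Library size alone reversed 3 values, all for the LPS effect at 24 h minus 4 h, where it moved the median of all genes by 0.57: Pla2g4a became 0.001 (adjusted p = 1), Tbxas1 0.135 (0.36) and Alox5ap 0.551 (1.6e-08), against -0.019 with TMM, which had not passed. It also brought 4 values past the threshold, Alox5ap in dexamethasone + LPS against LPS at 4 h (0.308), Ptgs1 in untreated cells at 24 h against 4 h (-0.245), Lta4h in the dexamethasone effect under LPS between the times (-0.355) and Ltc4s in the LPS effect between the times (1.194). Without the filter on low counts, Ptgs2 in dexamethasone against untreated cells at 24 h (adjusted p = 0.077) and Lta4h in dexamethasone + LPS against LPS at 24 h (0.1) no longer passed. Nor did, at 24 h, the difference of the dexamethasone effect with and without LPS for Ptgs2 (0.1) and Lta4h (0.069), while that for Tbxas1 passed (0.043). With the replicate number as a block, 139 of 140 tests kept their call, the exception being Lta4h in the difference of the dexamethasone effect with and without LPS at 24 h (0.224, adjusted p = 0.05). Libraries with the same number had a median r of -0.00105 in their deviations, and 9 of 24 correlated best with their own number. Whether a number stands for a shared mouse, culture or day is not stated, and these values cannot tell, because a small shared effect could go unseen. Over 1140 tests without 1 library, 1104 kept their call, 34 lost it and 2 gained it. Ptgs2 and Ptges without LPS, Alox5 and Ltc4s rest on few counts (as low as 10 over 3 libraries), and their values move with single libraries.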
